A study of Mus musculus with 7 samples.

Results

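The vessels of bone are lined by endothelial cells, and 37 genes that mark these cells were followed in femurs of mice with and without a traumatic brain injury (TBI). The genes were taken by name from a list of endothelial genes by role, and all 37 were found among the 49671 genes of the count table and among the 17144 genes that had enough counts to be tested. The injured group held 4 libraries from wild type mice whose brain cortex was struck by a controlled impact 3 days before the femur was taken. The comparison group held 3 libraries from wild type mice labelled only as control, which the series describes as uninjured. Whether these had anaesthesia or sham surgery is not stated in the labels, so effects of the procedure and of the blow cannot be told apart. The femur was crushed for extraction, and polyadenylated RNA was sequenced with a stranded kit. Age, sex and strain are not given in the labels used here, and the labels number the replicates without saying that each is a different mouse, so the tests measure the spread between these libraries. Total counts ran from 15461528 to 21783534 per library, and the 37 genes had between 38 (Apln in TBI 4) and 2299 (Pecam1 in TBI 3) counts in a library.

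Endothelial cells hold to each other through VE-cadherin (Cdh5) and PECAM-1 and sense vascular endothelial growth factors (VEGFs) through the receptors Kdr, Flt1 and Flt4. Angiopoietins act through the receptor Tek, with Tie1 as its partner. In long bones, thin-walled sinusoids run through the marrow and collect into veins, arterioles supply the marrow and the bone surface, and a capillary type rich in endomucin (Emcn) and PECAM-1 lies near bone-forming cells at the growth plate. Growing vessels are led by tip cells that make genes such as Angpt2, Apln and Esm1. Several of these genes are also made outside vessels: Pecam1, Esam, Icam2 and Erg in blood stem cells or megakaryocytes, and Stab1 and Lyve1 in some macrophages. Skeletal muscle that stays attached to a femur carries its own dense capillaries. In RNA from a whole bone, fewer endothelial cells and less RNA per cell cannot be told apart.

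No endothelial gene passed the test for a difference between injured and uninjured mice, and the estimates lay close to 0 in both directions. Of the 37 genes, 18 had a higher and 19 a lower estimate after TBI, and the median log2 fold change (TBI minus control, so 0 is no difference and 1 is a change of 2-fold) was −0.00074, against 0.026 over all 17144 genes tested. Their estimates ran from −0.25 (Apln) to 0.35 (Erg), and 0 of 37 lay beyond 0.5 in either direction, which 2681 of all genes tested did. In edgeR's quasi-likelihood test 0 of the 37 passed an adjusted p of 0.05, as did 0 of all genes tested (0.00%). DESeq2 also called 0 of them, where it called 114 of 15480 genes (0.736%). At an unadjusted p under 0.05 in edgeR, 1 of them was higher (Erg) and 0 were lower, against 2.37% and 4.97% of all genes tested (7.34% in either direction). Groups without overlap in CPM (a gene's counts scaled to a common library size, with TMM factors) were seen for 1 of the 37 higher and 0 lower, against 2.66% and 5.38% over all genes (8.04% in either direction).

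A test that calls nothing does not show equal levels, so the intervals set what the data allow. The 95% interval of the log2 fold change lay within 1 in either direction for 35 of the 37 genes, the exceptions being Flt1 (up to 1.02) and Sox7 (up to 1.02). Over all genes tested it did so for 11784 of 17144. A list of 9 bone and cartilage genes in the same libraries had 9 of 9 lower and a median of −0.79. The interval lay wholly above that value for 33 of the 37 endothelial genes and reached it for Cldn5, Efnb2, Apln and Esm1. The same held for 13283 of all 17144 genes, and a difference between the endothelial and the skeletal list was not tested.

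**Figure D1:**
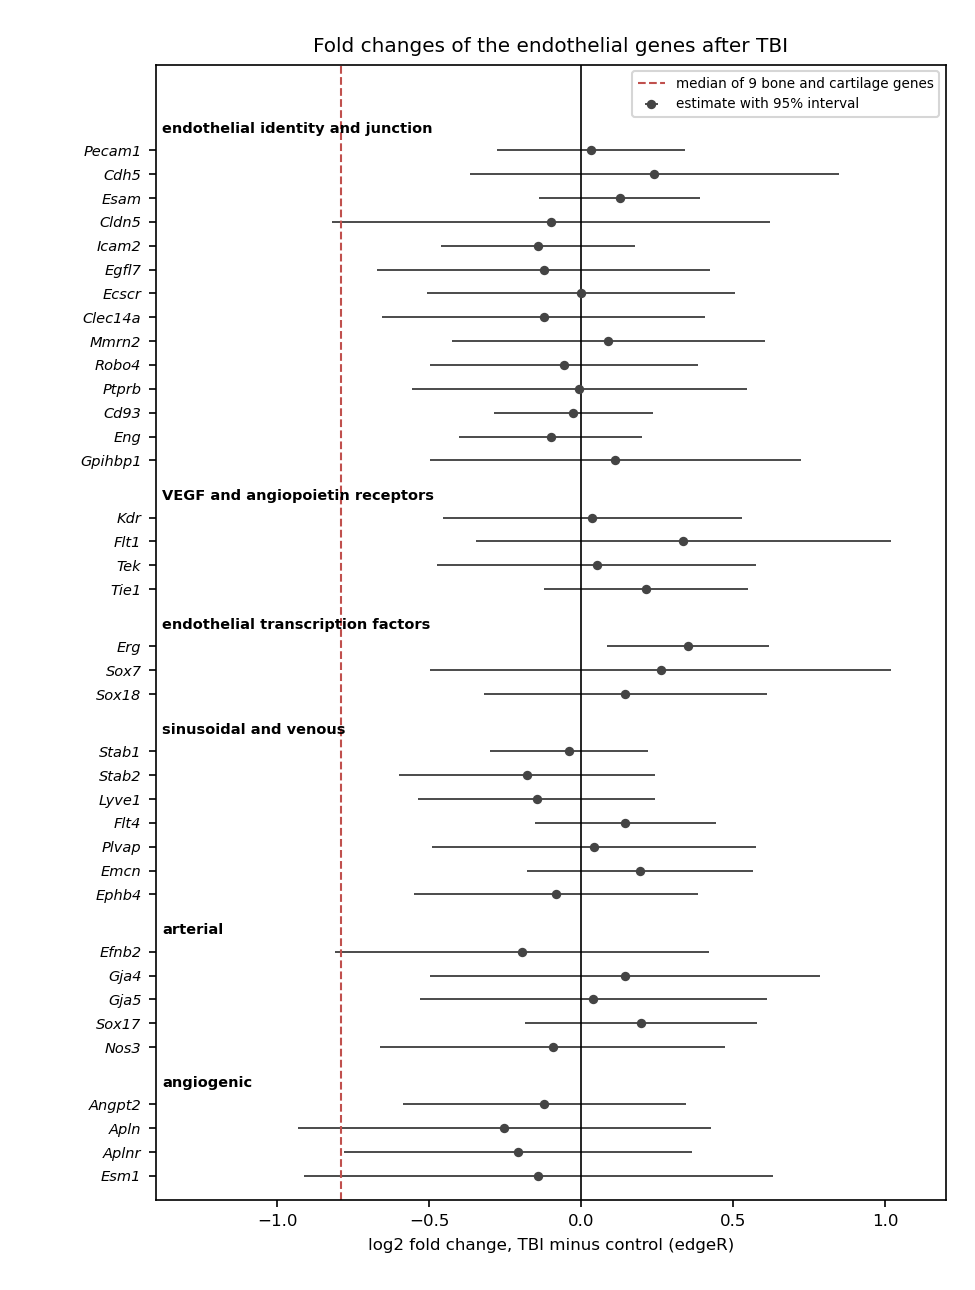
Log2 fold change of each of the 37 endothelial genes (TBI minus control, edgeR) with its 95% interval, grouped by role; the dashed line is the median of 9 bone and cartilage genes (−0.79). Erg is the only gene whose interval does not include 0.

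The libraries differed in what else they held, and these values stand beside every result here. The 9 muscle genes summed to 1.80% in control 1, 3.34% in control 2 and 5.64% in control 3, and 2.16%, 3.42%, 7.44% and 9.07% in TBI libraries 1 to 4, as shares of all counts, so muscle transcripts were highest in TBI 3 and TBI 4 and lowest in control 1 and TBI 1. The 5 adipocyte genes summed to 48.1 to 65.1 CPM in controls and to 55.3, 65.2, 191 and 116 CPM in TBI 1 to 4. The 7 erythroid genes summed to 44365 to 50960.5 CPM in controls and 22912 to 32183 CPM in TBI libraries, without overlap, and the 9 bone and cartilage genes to 18214 to 30589 CPM and 12086 to 16593 CPM, so transcripts of bone, marrow and muscle were present in each library. The endothelial genes were highest in TBI 3 for 19 of the 37 (51.4%), while 12.5% of all genes tested were highest there. They were lowest in TBI 1 for 13 (35.1%) and in control 1 for 9 (24.3%), against 15.2% of all genes in each. With TBI 3 and TBI 4 both left out, a choice made after the values were seen, the median of the endothelial genes was −0.26 with 30 of 37 lower, against −0.030 over all genes, and 0 of them passed the adjusted threshold. With the erythroid mean in the model, which the groups cannot be told apart from, it was −0.39. With single libraries left out it lay between −0.092 and 0.083. TBI 3 held the highest value of 19 of the genes, so their TBI means are lower without it.

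**Figure D2:**
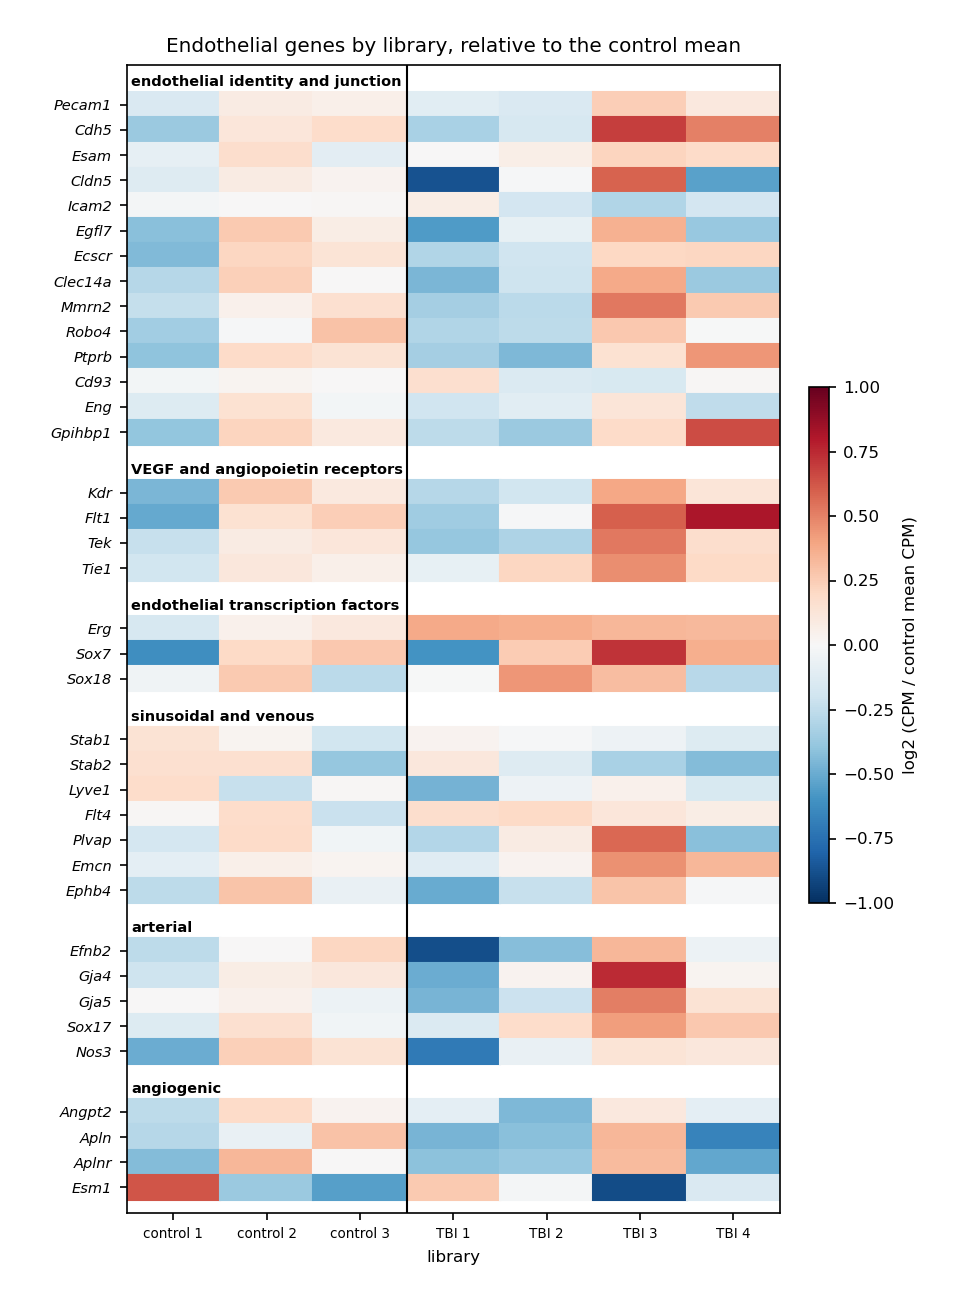
Each gene (rows, by role) in each library (columns), coloured by log2 of its CPM over the control mean. TBI 3 holds the highest value of 19 genes and TBI 1 the lowest of 13, and Esm1 is lowest in TBI 3 and highest in control 1.

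The genes of endothelial identity, surface and junctions had 5 of 14 members higher and 9 lower, and their median log2 fold change was −0.016. Pecam1, an adhesion molecule of cell borders (ENSMUSG00000020717, chromosome 11, 106654217 to 106750628, minus strand on GRCm38), measured 94.96, 111 and 109.8 CPM in controls 1 to 3 and 97.7, 94.8, 125 and 114 CPM in TBI 1 to 4. The groups overlapped, with the highest value in TBI 3 and the lowest in TBI 2, and the log2 fold change was 0.031 ± 0.14 (SE; 95% interval −0.28 to 0.34). Cdh5, the cadherin of endothelial adherens junctions, measured 52.8, 74.5 and 77.8 CPM in controls 1 to 3 and 54.7, 60.8, 110.2 and 97.02 CPM in TBI 1 to 4. TBI 3 and TBI 4 stood above all controls and TBI 1 and TBI 2 between control 1 and control 2, so the estimate of 0.24 ± 0.27 came with a wide interval (−0.37 to 0.85). Ptprb, the receptor phosphatase that acts on VE-cadherin and Tek, stood at −0.0059 ± 0.24 and Gpihbp1, which holds lipoprotein lipase on capillary walls, at 0.11 ± 0.27. Cldn5, a tight junction protein, stood at −0.10 ± 0.32 with 7.12 to 19.7 CPM across the TBI libraries against 11.96 to 13.8 CPM in controls. Esam (0.13) and Icam2 (−0.14) are adhesion molecules, and Eng (−0.10) is a coreceptor of the TGF-beta family. The remaining genes lay between −0.12 and 0.089: Egfl7, Clec14a, Robo4, Cd93, Ecscr and Mmrn2. Cd93, which sits on endothelial and myeloid cells, varied little, at 68.5 ± 1.29 CPM (SD, n = 3) for controls against 67.2 ± 7.30 CPM (SD, n = 4) for TBI libraries. Control 1 counts in the estimates: without it the median of the 14 was −0.16.

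Receptors for VEGF and for angiopoietins had 4 of 4 estimates above 0 and a median of 0.13. Kdr, the main signalling receptor for VEGF-A, measured 33.3, 55.1 and 49.1 CPM in controls 1 to 3 and 37.7, 40.1, 60.03 and 50.2 CPM in TBI 1 to 4. All TBI values but that of TBI 3 lay within the control range, and the log2 fold change was 0.036 ± 0.22 (−0.46 to 0.53). Flt1, which binds VEGF-A and limits its access to Kdr, had the next highest estimate of the 37 genes at 0.34 ± 0.30, with 39.8, 63.04 and 67.5 CPM in controls 1 to 3 and 44.4, 56.2, 85.8 and 100.2 CPM in TBI 1 to 4. It was highest in TBI 4 and TBI 3, the libraries richest in muscle transcripts, and its value with muscle as a covariate was 0.015 ± 0.095. Tek, the angiopoietin receptor, stood at 0.050 ± 0.23 and Tie1 at 0.21 ± 0.15. Without TBI 3 the median of the 4 was 0.0077, and without TBI 3 and TBI 4 it was −0.23.

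Erg, an ETS family transcription factor that keeps endothelial cells differentiated and is also made in blood stem cells and megakaryocytes, was the one gene whose groups did not overlap (ENSMUSG00000040732, chromosome 16, 95359169 to 95586593, minus strand). It measured 15.2, 17.7 and 18.3 CPM in controls 1 to 3 and 22.2, 21.97, 21.4 and 21.3 CPM in TBI 1 to 4. Every TBI library lay above every control, where 2.66% of all genes tested were separated in this direction. The TBI values were close together, with 17.04 ± 1.65 CPM (SD, n = 3) for controls against 21.7 ± 0.402 CPM (SD, n = 4) for TBI libraries. The log2 fold change was 0.35 ± 0.12 (SE; 95% interval 0.085 to 0.62, or 1.06 to 1.53-fold), with an unadjusted p of 0.0156 and an adjusted p of 0.587 in edgeR's quasi-likelihood test, so it did not pass over all genes tested. DESeq2 gave an adjusted p of 0.318. Across the alternatives the Erg estimate ran from 0.26 to 0.41 and its adjusted p from 0.171 to 0.987. With the muscle covariate the estimate was 0.34 ± 0.11. The unadjusted p of Erg in edgeR was not under 0.05 without control 1 or with the erythroid covariate. Megakaryocyte markers, 8 genes, summed to 1099 to 2098 CPM in controls and 1392 to 2409 CPM after TBI with 8 of 8 estimates higher. Stem and progenitor markers, 6 genes, summed to 146 to 164 and 145 to 154 CPM, with 3 estimates higher and 3 lower. Cd34 was the largest part of the latter sum, at 60.7 to 85.6 CPM in controls and 60.9 to 79.2 CPM after TBI. The part of either list in the Erg value was not tested. Sox7 and Sox18, SOX factors that act early in vessel formation, stood at 0.26 ± 0.33 and 0.14 ± 0.20 with overlapping groups.

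**Figure D3:**
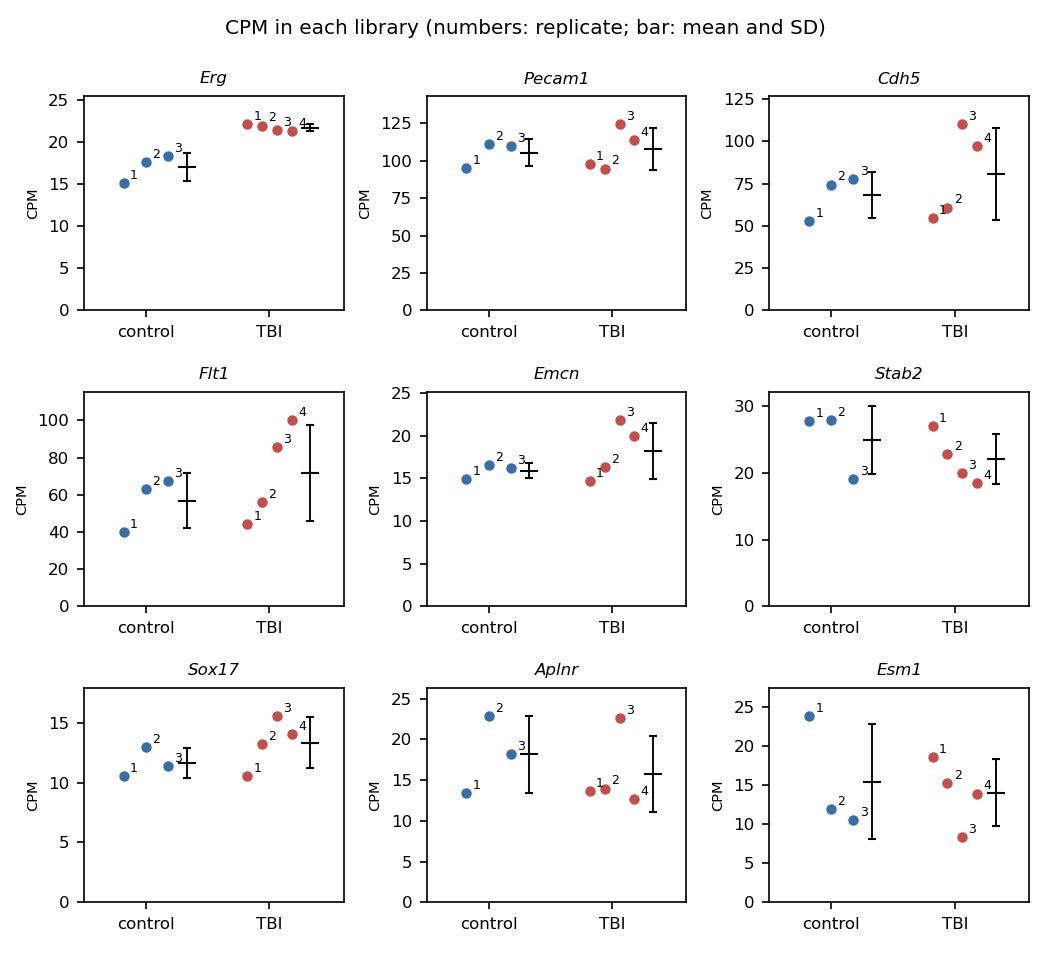
CPM of 9 endothelial genes in each library (points, with the replicate number) with the group mean and SD (bars), axes from 0. Erg is the gene with no overlap, and the ranges of the groups overlap in the other 8.

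ETS factors such as Erg bind DNA at a GGAA core, and the bases before the starts of 4 of these genes are shown because they span the patterns of the data: Erg itself, Flt1 which was highest where muscle transcripts were, Esm1 which ran against muscle transcripts, and the sinusoidal gene Stab1 which had the narrowest interval. RefSeq promoter windows on GRCm38.p6 were found for 20 of the 37 genes (24 windows, since Egfl7 and Erg have several starts), and the 250 bases before the start were searched on both strands. For ETS factors the letters searched were AGGAAG. The other ETS form was CGGAAG, which shares most of its letters with the first. For SOX factors they were AACAAT. For GATA factors they were AGATAA. No matches overlap in the windows shown. Capitals mark a match to any of them or to its reverse complement, letters run 5′ to 3′ on the gene's strand, and none of the shown bases lies in an exon of the GENCODE annotation. For Erg the window with the most matches is shown, and which start the libraries used was not tested.
Erg (chr16:95459349-95459598, minus strand): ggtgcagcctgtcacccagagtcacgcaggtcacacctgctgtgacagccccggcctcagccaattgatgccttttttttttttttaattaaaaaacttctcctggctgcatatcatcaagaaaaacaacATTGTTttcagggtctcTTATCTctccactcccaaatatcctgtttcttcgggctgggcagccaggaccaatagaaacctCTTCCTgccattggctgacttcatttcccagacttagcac
Flt1 (chr5:147726012-147726261, minus strand): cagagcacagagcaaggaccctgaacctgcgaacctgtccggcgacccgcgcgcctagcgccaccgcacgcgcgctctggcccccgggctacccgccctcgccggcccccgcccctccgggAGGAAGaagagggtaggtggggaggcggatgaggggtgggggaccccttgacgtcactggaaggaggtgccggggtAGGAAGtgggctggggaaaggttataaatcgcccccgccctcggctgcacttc
Stab1 (chr14:31168642-31168891, minus strand): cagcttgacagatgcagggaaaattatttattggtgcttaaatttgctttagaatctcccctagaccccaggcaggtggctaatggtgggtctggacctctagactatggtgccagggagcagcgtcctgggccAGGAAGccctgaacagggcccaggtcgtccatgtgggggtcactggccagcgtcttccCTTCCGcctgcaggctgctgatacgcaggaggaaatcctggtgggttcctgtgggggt
Esm1 (chr13:113209409-113209658, plus strand): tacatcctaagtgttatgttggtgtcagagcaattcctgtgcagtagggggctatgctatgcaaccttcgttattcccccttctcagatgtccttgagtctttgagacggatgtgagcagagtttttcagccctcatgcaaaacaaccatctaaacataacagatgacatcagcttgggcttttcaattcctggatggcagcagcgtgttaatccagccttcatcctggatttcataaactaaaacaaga
Erg held 1 ETS, 1 SOX and 1 GATA match in this window, Flt1 and Stab1 held 2 ETS matches each, and Esm1 held 0 matches. The ETS forms searched are longer than the GGAA core. GGAA or its reverse complement TTCC also stands in lower case in each window shown, that of Esm1 included. The other Erg windows (chr16:95530366-95530615 and chr16:95586594-95586843) held 0 matches. An ETS match was present in 12 of 24 endothelial windows (50%) and in 39.2% of all 32851 windows of the same length. The SOX letters were in 3 endothelial windows (Emcn, Erg and Tek), against 9.42% of all windows, and the GATA letters in 1 (Erg), against 9.99%. A match is a description of the letters, and binding was not measured.

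Genes of marrow sinusoids and veins had estimates on both sides of 0, with 3 of 7 higher and 4 lower and a median of −0.041. Stab2, a scavenger receptor of sinusoidal endothelium (ENSMUSG00000035459, chromosome 10, 86841198 to 87008025, minus strand), measured 27.8, 27.9 and 19.1 CPM in controls 1 to 3 and 26.9, 22.8, 19.9 and 18.4 CPM in TBI 1 to 4. It was high in controls 1 and 2 and TBI 1, low in control 3, TBI 3 and TBI 4, and its log2 fold change was −0.18 ± 0.19 (−0.60 to 0.24). Its relative Stab1, which macrophages also make, stood at −0.041 ± 0.11 with the narrowest interval of the 37 (−0.30 to 0.22). Flt4, the receptor for VEGF-C that marks sinusoids and lymphatic vessels, measured 17.4, 19.6 and 14.8 CPM in controls 1 to 3 and 19.6, 19.8, 18.8 and 18.2 CPM in TBI 1 to 4. The TBI libraries were close together and inside the control range, except that TBI 2 lay just above control 2, and the log2 fold change was 0.15 ± 0.13 (−0.15 to 0.44). Emcn, the endomucin of sinusoids and of the capillaries near the growth plate, measured 14.9, 16.6 and 16.2 CPM in controls 1 to 3 and 14.6, 16.3, 21.9 and 19.97 CPM in TBI 1 to 4. TBI 3 and TBI 4 lay above all controls and TBI 1 below them, giving 0.19 ± 0.16. Plvap, the protein of fenestral diaphragms, measured 46.8, 60.2 and 51.5 CPM in controls 1 to 3 and 43.2, 55.9, 78.8 and 39.6 CPM in TBI 1 to 4, with both the highest and the lowest value in TBI libraries, and stood at 0.041 ± 0.23. Without TBI 3 the Plvap value was −0.19. Ephb4, a receptor of venous endothelium, stood at −0.084 ± 0.21 and Lyve1, a hyaluronan receptor, at −0.15 ± 0.17. The 8 macrophage markers, which bear on Stab1 and Lyve1, summed to 279 to 347 CPM in controls and to 247 to 407 CPM after TBI, with 5 of 8 higher, and their part was not tested.

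Arterial genes had 3 of 5 estimates higher and 2 lower, with a median of 0.039. Efnb2, the ephrin ligand of arterial endothelium and the partner of Ephb4, measured 13.8, 16.6 and 19.2 CPM in controls 1 to 3 and 8.95, 12.3, 20.8 and 15.9 CPM in TBI 1 to 4. TBI 1 and TBI 2 lay below all controls and TBI 3 above them, and the log2 fold change was −0.19 ± 0.27 (−0.81 to 0.42). With the muscle covariate Efnb2 stood at −0.45 ± 0.16 with an unadjusted p of 0.0176 and an adjusted p of 0.191 in edgeR. The gap junction genes came next. Gja4 measured 5.69, 6.93 and 7.09 CPM in controls 1 to 3 and 4.65, 6.73, 11.01 and 6.69 CPM in TBI 1 to 4 and Gja5 5.05, 5.23 and 4.85 CPM in controls 1 to 3 and 3.65, 4.34, 7.21 and 5.59 CPM in TBI 1 to 4. In both, TBI 3 was the highest and TBI 1 the lowest of the 7 libraries, and the log2 fold changes were 0.14 ± 0.28 and 0.039 ± 0.25. Sox17, a transcription factor of arterial endothelium, measured 10.6, 12.99 and 11.4 CPM in controls 1 to 3 and 10.5, 13.2, 15.6 and 14.02 CPM in TBI 1 to 4. TBI 2, TBI 3 and TBI 4 lay above all controls and TBI 1 just below them, at 0.20 ± 0.17 (−0.19 to 0.58). Nos3, the endothelial nitric oxide synthase, stood at −0.094 ± 0.25. Without TBI 3 the arterial median was −0.16, without TBI 1 it was 0.17, and without TBI 3 and TBI 4 it was −0.36, so the direction depended on those libraries. Leaving out the other single libraries gave values from 0.0023 to 0.11.

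The 4 angiogenic genes all had estimates below 0, with a median of −0.17, and each interval included 0. Angpt2, the angiopoietin that loosens vessel walls, measured 4.42, 6.05 and 5.42 CPM in controls 1 to 3 and 4.95, 3.87, 5.69 and 4.95 CPM in TBI 1 to 4. The groups overlapped, and TBI 2 was lowest, with a log2 fold change of −0.12 ± 0.20 (−0.59 to 0.35). Apln, the apelin peptide of tip cells (ENSMUSG00000037010, chromosome X, 48025146 to 48034853, minus strand), was the least counted of the 37 genes and measured 2.62, 3.03 and 3.91 CPM in controls 1 to 3 and 2.30, 2.38, 4.01 and 2.00 CPM in TBI 1 to 4. TBI 1, TBI 2 and TBI 4 lay below all controls and TBI 3 above them, at −0.25 ± 0.30, and without TBI 3 the value was −0.51. Its receptor Aplnr measured 13.4, 22.9 and 18.2 CPM in controls 1 to 3 and 13.6, 13.96, 22.7 and 12.6 CPM in TBI 1 to 4. TBI 3 stood near control 2 while TBI 4 lay below all controls and TBI 1 and TBI 2 just above control 1, and the estimate was −0.21 ± 0.25. Without TBI 3 it was −0.43, and without control 2 it was −0.012. Esm1, a secreted proteoglycan of tip cells, measured 23.9, 11.98 and 10.6 CPM in controls 1 to 3 and 18.6, 15.3, 8.35 and 13.97 CPM in TBI 1 to 4. Control 1 was highest and TBI 3 lowest, and the log2 fold change was −0.14 ± 0.34 (−0.91 to 0.63), or 0.32 without control 1. The median of the 4 lay between −0.32 without TBI 3 and −0.13 without TBI 4 when single libraries were left out, and was −0.31 without control 1 and −0.35 without TBI 3 and TBI 4.

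Genes of the same pathways outside the list gave 0 called in edgeR over all genes tested. Of the 8 ligands and coreceptors, 5 were higher and 3 lower (median 0.10). Nrp2, a coreceptor for VEGF-C and semaphorins that bone cells also make, measured 193, 197 and 135 CPM in controls 1 to 3 and 136, 105, 113 and 102 CPM in TBI 1 to 4. TBI 1 lay just above control 3 and the other TBI libraries below all controls, at −0.62 ± 0.17 with an unadjusted p of 0.00585 and an adjusted p of 0.483 in edgeR. Angpt1, the ligand that activates Tek, measured 37.6, 24.5 and 26.2 CPM in controls 1 to 3 and 47.9, 40.4, 35.6 and 37.4 CPM in TBI 1 to 4. Controls 2 and 3 lay below all TBI libraries and control 1 within their range, at 0.45 ± 0.18 (adjusted p = 0.651 in edgeR). Vegfa, the main VEGF ligand, stood at 0.39 ± 0.31 with 163 and 208 CPM in TBI 3 and TBI 4 and 82.4 to 117 CPM in the other 5 libraries. TBI 3 and TBI 4 were the libraries richest in muscle transcripts, and the Vegfa value with muscle as a covariate was 0.031 ± 0.12.

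The Notch pathway of vessels, through which tip and arterial cells signal to their neighbours, had 4 of 8 genes higher and 4 lower (median −0.076). Hey2, an arterial target of Notch, was low, at 1.57 ± 0.669 CPM (SD, n = 3) for controls against 0.992 ± 0.320 CPM (SD, n = 4) for TBI libraries, with a log2 fold change of −0.65 ± 0.40 and overlapping groups. Notch1 stood at 0.23 ± 0.17 and Notch4, the endothelial Notch receptor, at −0.19 ± 0.21. A set of 16 other endothelial genes had 12 higher and 4 lower, with a median of 0.10. Those with the smallest p were Myct1 (0.31 ± 0.15), the kinase Bmx (0.49 ± 0.32) and the ETS factor Fli1 (0.34 ± 0.24), which marrow cells also make. Bmx measured 13.99 CPM in TBI 1 and 4.85 to 8.39 CPM in the other libraries, and which cells made it was not tested. The 4 adhesion genes of activated endothelium had 3 higher and 1 lower. Among them Selp, a selectin shared with platelets, stood at 0.44 ± 0.31, Icam1 at −0.14 ± 0.15 and Vcam1, which marrow macrophages and stroma also carry, at 0.28 ± 0.40.

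Part of the endothelial genes rose with muscle transcripts from library to library: 11 of 37 passed the test for a positive slope and 2 for a negative one. A model with both the group and the mean log2 CPM of the 9 muscle genes was fitted over all genes, and its slope is the change in a gene's log2 level per log2 unit of the muscle mean. Within each group the muscle mean increased with the replicate number. The slope therefore cannot be told apart from any other change that followed this number, and no such change was tested. TBI 4 had the highest muscle mean and the highest value of 3 of the 37 genes, and TBI 3 had the highest value of 19. This slope was read after the values were seen. It was above 0 for 30 of the 37 endothelial genes, while 44.4% of all genes tested had a slope above 0. In edgeR it passed an adjusted p of 0.05 in the positive direction for 11 of the 37 (14.0% of all genes) and in the negative direction for 2 (9.71% of all genes). The steepest was Flt1, at 0.50 ± 0.054 (SE, adjusted p = 9.16e-05 in edgeR), followed by Sox7 (0.46 ± 0.13), Cdh5 (0.41 ± 0.068), Efnb2 (0.39 ± 0.092) and Gpihbp1 (0.37 ± 0.088). Ptprb, Nos3, Mmrn2, Tek, Kdr and Robo4 passed with slopes from 0.26 to 0.35. Pecam1 had a slope of 0.14 ± 0.053 that did not pass (adjusted p = 0.0783 in edgeR), and that of Erg was 0.030 ± 0.065.

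A negative slope was estimated for Icam2, Cd93, Sox18, Stab1, Stab2, Flt4 and Esm1, of which Stab2 and Esm1 passed. Esm1 fell by 0.42 ± 0.12 per log2 unit of the muscle mean (adjusted p = 0.0323 in edgeR) and the sinusoidal gene Stab2 by 0.25 ± 0.069 (adjusted p = 0.0269). By role, 5 of 5 arterial genes had a slope above 0 and 2 passed, 12 of 14 identity genes and 5 passed, and 4 of 7 sinusoidal and venous genes of which 0 passed as positive. Markers of the wall cells around vessels had 7 of 9 positive slopes called, macrophage markers 5 of 8 negative and megakaryocyte markers 8 of 8 negative. Over all genes tested 44.4% had a slope above 0, 14.0% passed as positive and 9.71% as negative. A difference between these lists was not tested. CPM values are shares, and whether the endothelial RNA came from muscle or bone vessels was not tested. The counts of called slopes changed with single libraries. Without control 1 they were 5 positive and 0 negative, where 11% and 4.82% of all genes were called. Without TBI 1 they were 4 and 0, against 8.18% and 1.87% of all genes, so in these 2 fits the endothelial genes were near the background. Without control 3 they were 10 and 0, against 11.1% and 6.1% of all genes. Leaving out control 2, TBI 2 or TBI 4 left 1 negative slope called, and only the removal of TBI 3 left both. Cdh5, Ptprb and Flt1 passed in each of the 7 fits that left out 1 library.

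**Figure D4:**
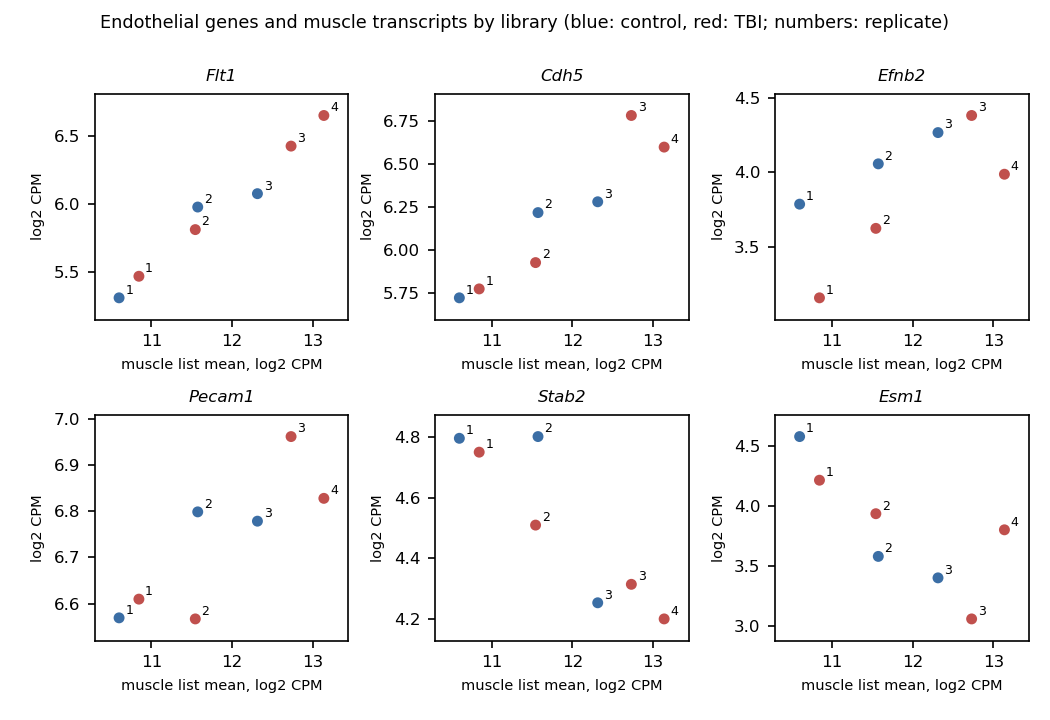
Log2 CPM of 6 endothelial genes against the mean log2 CPM of 9 muscle genes in the same library (blue: control, red: TBI). Flt1 and Cdh5 are lowest in control 1 and TBI 1, the libraries with least muscle RNA, and Esm1 is highest there.

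In the fit with the muscle mean as a covariate, the group difference of the endothelial genes had a median of −0.12, with 27 of 37 below 0, against 0.015 over all genes tested. The estimates ran from −0.45 (Efnb2) to 0.34 (Erg), and 0 passed the adjusted threshold in edgeR, as did 0 of all genes. At an unadjusted p under 0.05 there were 1 lower (Efnb2) and 1 higher (Erg), against 7.48% and 8.59% of all genes. The bone and cartilage list had a median of −0.68 in this fit.

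The balance between vessel types was taken within each library, as log2 of the summed CPM of a group over that of the 14 identity genes. For the sinusoidal and venous genes it was −1.28 in control 1, −1.50 in control 2 and −1.70 in control 3, and −1.42, −1.34, −1.55 and −1.77 in TBI libraries 1 to 4. It was highest in control 1 and lowest in TBI 4, with means of −1.49 ± 0.21 (SD, n = 3) and −1.52 ± 0.19 (SD, n = 4). For the arterial genes it was −3.52 in control 1, −3.50 in control 2 and −3.45 in control 3, and −3.85, −3.42, −3.37 and −3.51 in TBI libraries 1 to 4. TBI 1 alone stood below the controls by more than their range. The angiogenic balance was −3.86 ± 0.27 in controls and −4.04 ± 0.25 after TBI, and the groups overlapped in all 5 balances that were formed. No test was made on these sums.

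Per kilobase of exon, the levels of the 37 genes spanned 30.3-fold in controls. Plvap was highest at 26.6 ± 3.42 CPM per kb (SD, n = 3), followed by Eng at 21.8 ± 2.20, Pecam1 at 16.9 ± 1.45 and Cdh5 at 16.3 ± 3.23. The lowest were Angpt2 at 1.44 ± 0.223, Apln at 1.01 ± 0.210 and Gja5 at 0.878 ± 0.0335. Neighbours in this order overlapped in their control ranges in 35 of 36 pairs, the exception being Eng above Pecam1, so the order is one of broad classes. Among the receptors on this per-length scale, Tie1 (9.92 CPM per kb) stood above Kdr (5.08), Tek (5.01), Flt1 (4.20) and Flt4 (2.10). Exon length merges all annotated transcripts of a gene, so genes with long rare transcripts appear lower on it.

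**Figure D5:**
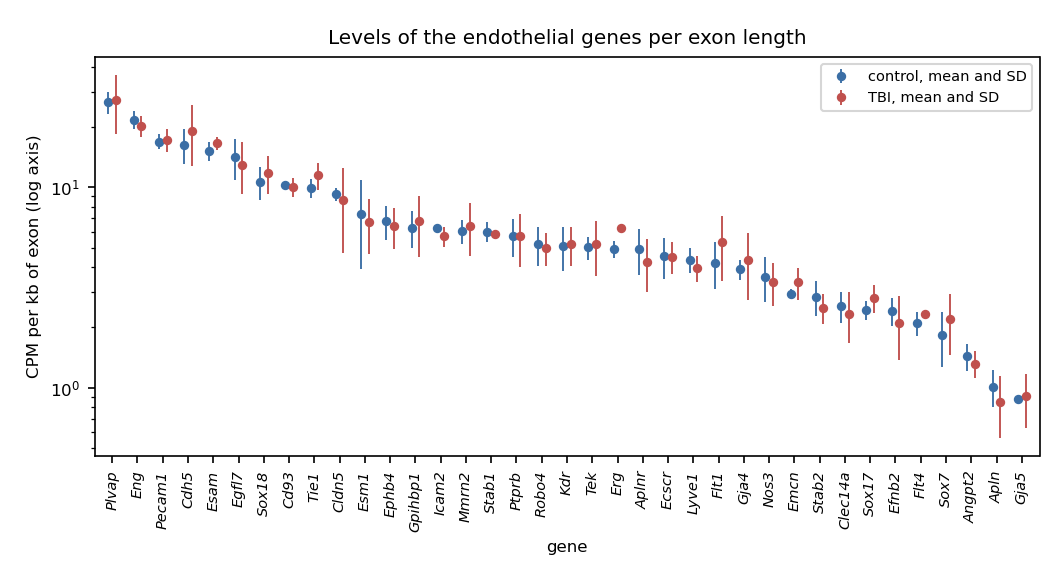
Mean CPM per kb of merged exon (log axis) with SD for the 37 endothelial genes in control (blue, n = 3) and TBI (red, n = 4) libraries, ordered by the control mean from Plvap to Gja5. The control means span 30.3-fold.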

How the data were processed

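Femur RNA was sequenced in 3 control and 4 TBI libraries. The authors deposited raw read counts per Ensembl gene (49671 genes); STAR, DESeq and GRCm38 appear, unversioned, in the submitters' processing notes. The counter, its strand setting and its handling of shared reads were not stated. A table of normalized values from the same reads was not used. GENCODE M21 (GRCm38) supplied symbols, positions and exon lengths for 49412 identifiers (99.5%) and all 37 endothelial genes; of the other listed genes 1 (Ccl21a) had no single match and was left out.

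Counts were filtered with filterByExpr (17144 genes), scaled by TMM and tested with edgeR 4.0.16 (glmQLFit and glmQLFTest, R 4.3.3), with Benjamini-Hochberg adjustment over all genes and a threshold of 0.05. Standard errors and 95% intervals came from the estimate and its F statistic. DESeq2 1.42.0 (no adjusted p for 1664 genes) and limma 3.58.1 were alternatives. List means for covariates used log2(CPM + 0.5). Tested on simulated counts for this comparison (16822 genes), edgeR found 7 of 67 true 1.5-fold changes, 37 of 67 at 2-fold and 63 of 66 at 4-fold. The same fit also called 10 unchanged genes. The simulated libraries did not differ in muscle or other cell content as the real ones do, so these rates may not carry over. No replicate pair was as alike as sampling noise allows (chi-square per degree of freedom at least 27.2). At these depths 1 count equals 0.0426 to 0.0630 CPM.

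The genes and lists were chosen with earlier results of these data known. Values in every library are given for 15 anchor genes of the roles and for any other endothelial gene with an unadjusted p under 0.05 or separate groups, which was Erg. Flt1 was added to these after its values were seen. Pathway lists name the 3 genes with the smallest p. Alternatives were other scalings, filters and tools, a replicate block, muscle or erythroid genes as a covariate, and leaving out each library; the muscle slope and the fit without TBI 3 and TBI 4 were chosen after seeing the data.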

Additional observations from a re-analysis of the deposited data

Results flagged for a closer look

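Aplnr, the apelin receptor, measured 22.7 CPM in TBI 3, far from the other TBI libraries (12.6 to 13.96 CPM). The gap was 0.869 of the range of the 4 libraries, above Dixon's 95% value for 4 samples. 44 sets of TBI values were looked at, the 37 genes and 7 sums, and chance alone flags about 1 in 20. Control 2, at 22.9 CPM, was as high.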

How the results depend on the processing

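Over the 18 alternatives 0 of the 37 endothelial genes passed the adjusted threshold in the group comparison; over all genes only DESeq2 called any (114). With erythroid genes as covariate, a list whose summed level did not overlap between the groups (44365 to 50960.5 against 22912 to 32183 CPM), the median log2 fold change was −0.39 over all 37, −0.49 for identity genes, −0.63 for receptors, −0.44 for arterial and −0.30 for angiogenic genes, but 0.042 for sinusoidal and venous genes and 0.26 for transcription factors. With TBI 3 and TBI 4 both left out the same medians, in that order, were −0.26, −0.29, −0.23, −0.36, −0.35, −0.062 and 0.21. With limma-voom and quality weights the angiogenic median was −0.32. With single libraries left out the median of all 37 ran from −0.092 to 0.083 and the angiogenic median from −0.32 to −0.13. Called muscle slopes ran from 4 to 16 positive and 0 to 2 negative when 1 library was left out, and were 7 and 1 without a group term. Over all genes the positive share was 8.18% to 13.1% and 12.7% in these fits, and the negative share 1.87% to 10.4% and 4.18%; the cause was not tested. Other scalings changed the sign of 1 (RLE) and 3 (upper quartile) of the 37 estimates.

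With the replicate number as a block, which leaves TBI 4 without a partner, 0 genes were called and the median of the 37 was −0.050. The labels do not say whether the numbers pair the samples. Deviations of same-numbered libraries correlated at 0.63, −0.040 and 0.39 across genes for numbers 1 to 3. Those of libraries with unlike numbers ran from −0.53 (control 3 with TBI 1) to 0.50 (control 3 with TBI 4), so a pairing is neither shown nor excluded.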

Other observations

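Cells around the vessels gave mixed values, in genes chosen after their values were seen. Of the 9 genes of wall cells 6 were higher and 3 lower. Cspg4 and Pdgfrb, which pericytes and bone-forming cells share, stood at log2 fold changes of −0.54 ± 0.19 and −0.31 ± 0.16 (SE). Their adjusted p was 0.609 and 0.718 in edgeR. Cspg4 measured 51.4, 80.4 and 71.6 CPM in controls 1 to 3 and 43.3, 47.98, 57.5 and 38.05 CPM in TBI 1 to 4, with TBI 1, TBI 2 and TBI 4 below all controls. The smooth muscle gene Myh11 measured 31.5, 48.04 and 57.6 CPM in controls 1 to 3 and 37.7, 53.3, 157 and 69.5 CPM in TBI 1 to 4. TBI 3 was the highest by far, and the log2 fold change was 0.79 ± 0.46. Rgs5, a pericyte gene, stood at 0.23 ± 0.30.

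Of lymphatic markers, the transcription factor Prox1 was at 1.39 to 2.95 CPM over the 7 libraries, lowest in TBI 1 and control 1. Reln, which other cells also make, measured 20.4, 21.6 and 21.2 CPM in controls 1 to 3 and 18.3, 11.6, 13.7 and 16.2 CPM in TBI 1 to 4. Every TBI library lay below every control, at −0.50 ± 0.17 with an adjusted p of 0.587 in edgeR, where 5.38% of all genes tested were separated in this direction. Mmrn1 went the other way, at 0.50 ± 0.32 with overlapping groups. The 3 lymphatic markers summed to 57.6 to 96.3 CPM in controls and to 66.6 to 111 CPM after TBI. Mmrn1 was the largest part of this sum in every library, at 33.1 to 74.5 CPM in controls and 50.2 to 91.6 CPM after TBI. Its muscle slope was −0.46 ± 0.089, and the slopes of the 8 megakaryocyte markers were also negative. Which cells made Mmrn1 was not tested.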
